A study of Bos taurus with 10 samples.

Results

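The genes described here encode the membrane carriers that bring glucose, amino acids, lactate and pyruvate into cells. They were chosen by gene name, as every probe whose name on the array belonged to the solute carrier (SLC) families 1, 2, 3, 6, 7, 16, 36, 38 or 43, and they were grouped by substrate. The rule took 77 gene names of the 14697 on the array, with 153 of its 43653 probes. SLC7A6OS shares the name pattern but is not a transporter, and its single probe was not well above background on any array. Carriers of the SLC2A family move hexoses down their gradient, and several carriers of the SLC16A family move lactate, pyruvate and ketone bodies together with protons. The amino acid carriers are divided by what drives them: sodium-coupled systems accumulate amino acids, while exchangers built of a heavy chain (SLC3A) and a light chain (SLC7A) trade one amino acid for another. In mammalian embryos, glucose uptake is known to increase at compaction and blastocyst formation, after early cleavage stages that rely on pyruvate.

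RNA was measured in 10 embryo samples from superovulated cattle on 1-colour bovine oligonucleotide arrays, with 1 array per sample. The donor cows were infused intravenously with DMSO vehicle (2 samples), with senktide at 30 nmol/min (4 samples) or with senktide at 300 nmol/min (4 samples). Senktide is a synthetic peptide that activates the neurokinin-3 receptor. All cows had been superovulated; the senktide infusion lasted 2 h from 48 h after superovulation began, inseminations were made at 108 and 120 h, and embryos were flushed from the uterus on day 7 after the first insemination. The labels give neither the number of embryos in a sample nor whether each sample came from its own cow, so p-values reflect the spread between these 10 samples alone, part or all of which may be technical. The study's question was what the infusion did to the quality and stage of the embryos.

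Between 7.17% and 19.6% of probe spots on an array were well above background, the scanner software's call that a spot exceeds its local background. The arrays lay on 3 slides: 1 array of each of the 3 groups lay on slide 1 and likewise on slide 2, while replicates 3 and 4 of the senktide groups shared slide 3 without a vehicle array. The trophectoderm keratins KRT8 and KRT18 were well above background on all 10 arrays, as was SOX2 of the inner cell mass, while the trophectoderm gene CDX2 and the inner cell mass gene NANOG were so on 0 arrays. Of the markers of other cells, those of cumulus cells (HAS2, PTX3, TNFAIP6) were well above background on 0 arrays. Of 4 leukocyte markers, 1 (LYZ) was well above background on each vehicle array and 1 to 3 on each senktide array. Their summed processed signal was 30.1 to 48.0 in vehicle, 36.9 to 141 at 30 nmol/min and 51.2 to 189 at 300 nmol/min. These sums are not scaled to the array; that of the trophectoderm markers was 2637 to 3020 in vehicle, 2921 to 13970 at 30 nmol/min and 4611 to 17520 at 300 nmol/min. On the scaled log2 values LYZ differed from vehicle by -0.54 at 30 nmol/min (SE 0.23, adjusted p = 0.431, limma) and by -0.48 at 300 nmol/min (SE 0.23, adjusted p = 0.379). The other tested leukocyte markers, PTPRC and ITGB2, went the other way, with higher means than vehicle at both doses. Their adjusted p was 0.91 and 0.48 for PTPRC and 0.97 and 0.92 for ITGB2 (limma), with vehicle signals not well above background. S100A8 of neutrophils was well above background on 0 arrays, PTPRC on 5 and ITGB2 on 4, with 0 vehicle arrays among them. Of the other lists, HBA of red blood cells was so on 4 arrays and HBB on 0, CLU of uterine and oviduct epithelium on 7 and OVGP1 on 0, and COL1A2 of stroma on 3 and COL1A1 on 0, all of them senktide arrays. The part of these other cells in the transporter values was not tested. In whole embryos a lower signal from fewer cells of a type and one from less RNA per cell cannot be told apart.

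Several carriers were measured by probes at different places on 1 transcript. Whether a transporter was seen mostly went with the place of the probe. The last probe led about as often on other transcripts of the array. Each line below gives the first 30 of the 60 bases of a probe, 5′ to 3′ as the array files list it, for 5 transporters, chosen after their values were seen, that show a contrast between a probe that was well above background and one on the same transcript that was not. The number after the gene is the base of the transcript at which the probe starts, and capitals mark a polyadenylation signal hexamer (AATAAA or ATTAAA); the probe of SLC2A3 at base 4000 holds AATAAA beyond the bases shown.
SLC2A1 at base 2451: tatctggacaaaccaacttgtaaatatacc
SLC2A1 at base 1815: ctccaggattttaacaaaagactgttgctc
SLC2A3 at base 4000: aaatggaaaagccttagtgcattgccttgc
SLC2A3 at base 3709: gcatggaattttttccagttctcagtgacc
SLC2A3 at base 1740: cgctcagaggatcccaaggctggggttagt
SLC7A5 at base 3958: gctttgggatggggagttttgtgttttgtt
SLC7A5 at base 3320: tttgagactgttggggcctcagttttcttg
SLC38A2 at base 4670: tatagaggccaacaattccagtaagacttg
SLC38A2 at base 4103: ttgctgtcttccgtggatggttcagttata
SLC16A1 at base 2004: tttagggagccttaactATTAAAactattc
SLC16A1 at base 1279: ttctttggatttgcttttgggtggctcagc

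In each pair shown, the probe farther along was the one seen. The SLC2A1 probe at base 2451 (Btau_3.1, chr3:110249154-110249213, plus strand) was well above background on 10 arrays and that at base 1815 (chr3:110248518-110248577, plus strand) on 0. The SLC2A3 probes at bases 4000 (chr5:108852137-108852196, minus strand) and 3709 (chr5:108852428-108852487, minus strand) were so on 10 arrays each, and that at base 1740 (chr5:108854400-108854456, minus strand) on 0, shown in place of another on 0 arrays between them for which the files list only a short genome interval. For SLC7A5 the counts were 10 arrays at base 3958 (chr18:12563377-12563436, minus strand) and 0 at base 3320 (chr18:12564015-12564074, minus strand). For SLC38A2 they were 10 at base 4670 (chr5:37076828-37076887, plus strand) and 0 at base 4103 (chr5:37076261-37076320, plus strand). Seen probes were not always the farther ones: the SLC38A2 probes at bases 3593 and 4218, on either side of that at base 4103, were well above background on 4 arrays each, and the SLC2A3 probe at base 733 on 1. For SLC16A1 the counts were 8 at base 2004 (chr3:32867897-32867956, plus strand) and 0 at base 1279 (chr3:32863928-32863987, plus strand). The files do not say whether a probe lies in a coding exon or a UTR, so no such annotation is given.

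Over the 13 transporter transcripts that had at least 2 probes and at least 1 of them well above background on 2 or more arrays, the probe farthest along was well above background on as many arrays as any other in 11 (84.6%). The exceptions were SLC38A9 and SLC6A9, where a probe short of the last had more. The probe nearest the start was well above background on at least 2 arrays in 1 of the 13 (7.69%), SLC1A3, whose probe started at base 3257. The same counts over the other 3905 such transcripts on the array were 79.9% and 30.2%. The 22 transporter probes well above background on at least 2 arrays started at a median of base 2962 and the other 131 at base 1427, and their median GC contents were 40.8% and 45%. The polyadenylation signal AATAAA stood in 6 of the 22 (27.3%) and in 4 of the 131 (3.05%) on the strand listed, and in 0 and 8 on the other strand. Among all other probes on the array it stood in 18.6% of those seen (well above background) on 2 or more arrays and in 6.99% of the rest. The variant ATTAAA, counted on its own even where a match shared bases with AATAAA, stood in 1 of the 22 and in 4 of the 131, against 5.45% and 3.11% of all other probes. A transporter without a signal is given below as not well above background and never as absent.

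**Figure D1:**
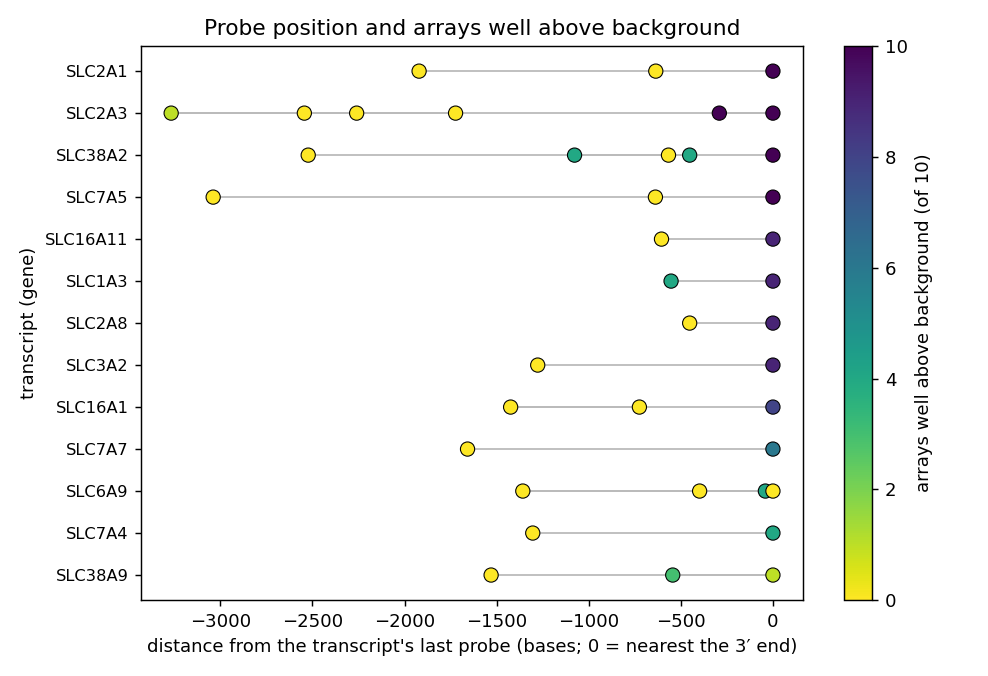
Probes of the 13 transporter transcripts with at least 2 probes; the horizontal axis is the distance in bases from the last probe of the transcript and the colour is the number of arrays, of 10, on which a probe was well above background. In 11 of 13 transcripts no probe was well above background on more arrays than the last one.

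Levels below are log2 of the background-subtracted processed signal minus the array's 75th percentile of the probes that were well above background on all 10 arrays, so that 0 marks a bright probe, and each gene is read from its brightest probe. Levels of different probes are not compared, since probes differ in how well they hybridise. Of the 77 gene names, 18 were well above background on 2 or more arrays, 10 on at least 8 and 5 on all 10, while 54 were so on 0 arrays. These shares, 23.4% on at least 2 arrays and 70.1% on 0, stood beside 34.5% and 59.0% for the other 14620 gene names; the transporters had 1.99 probes per gene and the others 2.14.

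Among 10 hexose carriers, SLC2A1 (GLUT1, the widespread basal glucose transporter) and SLC2A3 (GLUT3, a high-affinity glucose transporter found in the trophectoderm of the mouse blastocyst) were well above background on all 10 arrays. SLC2A8 (GLUT8, described as insulin-responsive in the mouse blastocyst) was so on 9. SLC2A4 (GLUT4, the insulin-responsive transporter of muscle and fat) was so on 1. The other hexose carriers, among them SLC2A2 (the low-affinity transporter of liver and pancreatic beta cells) and SLC2A5 (a fructose transporter), were well above background on 0 arrays, as was the inositol carrier SLC2A13.

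Monocarboxylate carriers were represented by SLC16A1 (MCT1, which carries lactate, pyruvate and ketone bodies), well above background on 8 arrays. The other 3 carriers of that group were well above background on 0 arrays: SLC16A3 (MCT4, the lactate exporter of glycolytic cells, with 4 probes), SLC16A7 (MCT2, a high-affinity pyruvate carrier, with 3 probes) and SLC16A8. Of 9 further SLC16A members, SLC16A11 was well above background on 9 arrays and the rest on 0, including SLC16A10, a carrier of aromatic amino acids.

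The amino acid carriers seen on nearly every array were 2 glutamate carriers, a carrier of small neutral amino acids, and both chains of a large neutral amino acid exchanger. SLC1A1 (EAAT3, a sodium-coupled glutamate and aspartate transporter) and SLC38A2 (SNAT2, a sodium-coupled carrier of small neutral amino acids that amino acid shortage induces) were well above background on all 10. SLC7A5 (LAT1, the light chain that exchanges large neutral amino acids such as leucine) was so on all 10 and its heavy chain SLC3A2 (4F2hc) on 9. SLC1A3 (GLAST, a glutamate transporter best known from glia) was so on 9. The remaining heavy chain, SLC3A1, which pairs with the light chain SLC7A9, was well above background on 0 arrays.

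Further amino acid carriers were seen on fewer arrays. SLC7A7, the light chain of a cationic and neutral amino acid exchanger, was well above background on 6 arrays, and SLC1A5 (ASCT2, a glutamine and neutral amino acid exchanger) on 5. SLC6A9 (GLYT1, which takes up the glycine that early mouse embryos use as an osmolyte), SLC43A2 (LAT4, a facilitated carrier of branched-chain amino acids and phenylalanine), SLC7A4 and SLC7A14 were so on 4 arrays each. SLC38A9, the arginine sensor of the lysosome, and SLC6A20, a proline carrier, were so on 3 each. SLC38A6, SLC43A3, SLC6A13 and SLC6A17 were so on 1 array each, and a dimmer probe of SLC1A4 (ASCT1) on 1. All 3 carriers of the SLC36A family, which are driven by protons, were well above background on 0 arrays. The same held for the cationic carriers SLC7A1, SLC7A2 and SLC7A3, the cystine carrier SLC7A11, the taurine carrier SLC6A6, the creatine carrier SLC6A8 and, with 5 probes, SLC6A14.

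The number of transporter genes seen on an array moved with the array's overall brightness. Their number was 9 and 8 on the vehicle arrays, 12, 10, 17 and 17 at 30 nmol/min, and 11, 12, 19 and 17 with the higher dose. The share of all spots well above background on the same arrays was 7.17% and 9.44% in vehicle, 11.53%, 8.77%, 18.3% and 19.6% at 30 nmol/min, with 10.47%, 13.2%, 19.6% and 19.1% at 300 nmol/min. The 4 arrays with 17 or more transporters were the 4 arrays of slide 3. SLC43A2, SLC7A4 and SLC6A9 were well above background on those 4 arrays and on 0 others, and SLC6A20 and SLC38A9 on 3 of them and on 0 others. SLC7A14 went the other way, being well above background on replicates 1 and 2 of both senktide groups and on 0 arrays of slide 3. The plot of transporters by array shows the 10 genes that were seen on at least 8 arrays as nearly unbroken rows of filled points and the other genes mainly as points in the columns of slide 3.

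**Figure D2:**
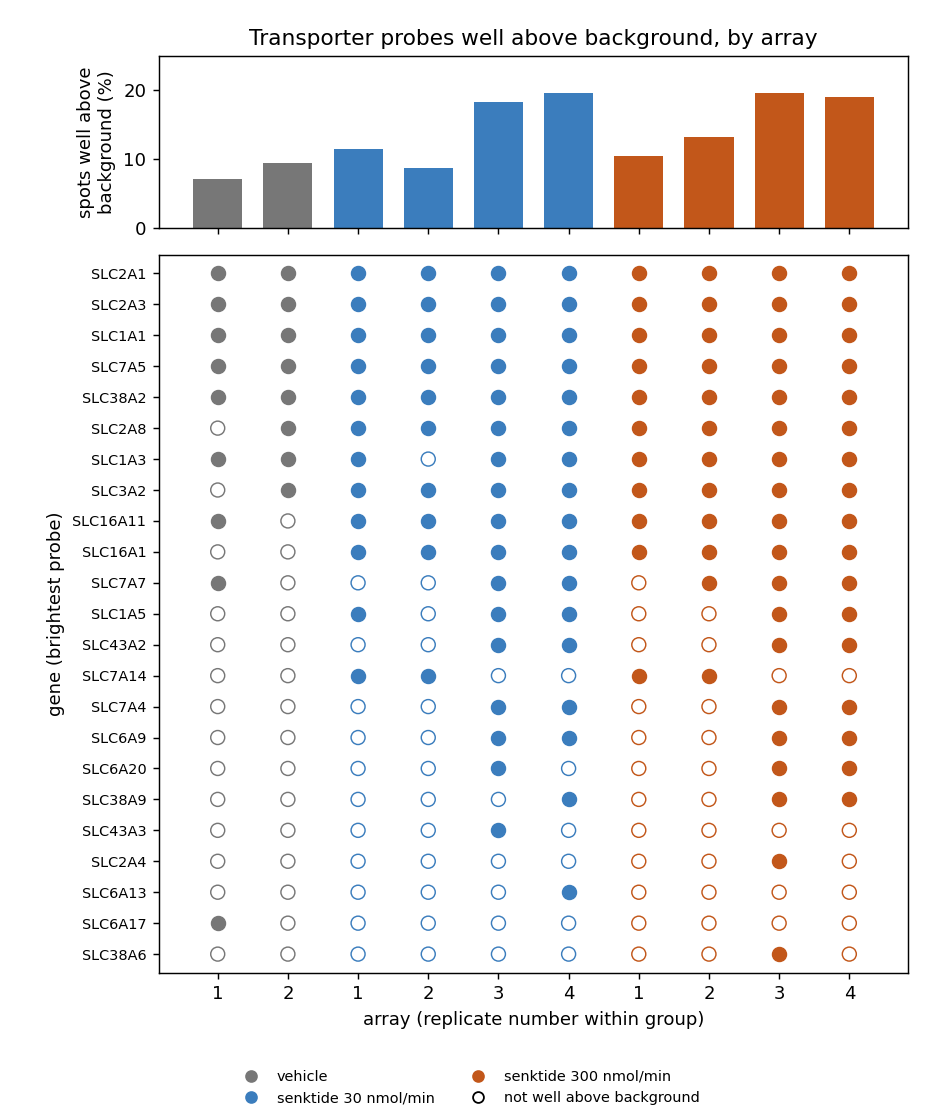
Top, percentage of all probe spots well above background on each array; bottom, the 23 transporter genes whose brightest probe was well above background (filled point) on at least 1 array. The arrays labelled 3 and 4 in both senktide groups, which have 18.3% to 19.6% of spots well above background, carry most of the filled points of the genes seen on 6 arrays or fewer.

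Scaling removed most of that brightness for the 10 transporters seen on at least 8 arrays. On the 4 senktide arrays of slide 3 their mean processed signal was 2.07 (SLC16A11) to 3.36 (SLC3A2) times that on the 4 senktide arrays of slides 1 and 2. After scaling, the log2 level on slide 3 minus that on slides 1 and 2 ranged between -0.44 (SLC16A11) and 0.20 (SLC2A3 and SLC3A2). SLC2A3, for example, had processed signals of 102 and 143 in vehicle, 211, 127, 548 and 639 at 30 nmol/min, with 263, 226, 810 and 725 at 300 nmol/min. The SD of the scaled level over all 10 arrays lay between 0.21 (SLC2A1 and SLC3A2) and 0.39 (SLC16A1 and SLC16A11) in these 10 genes.

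For the glucose carriers, SLC2A1 had log2 levels of -0.78 and -0.69 in vehicle, -0.90, -0.27, -1.02 and -0.73 at 30 nmol/min, with -0.96, -0.81, -0.71 and -0.90 at 300 nmol/min. The groups overlapped, with both vehicle arrays inside the range of the senktide arrays. SLC2A3 had levels of 0.35 and 0.21 in vehicle, 0.24, 0.35, 0.45 and 0.65 at 30 nmol/min, with 0.55, 0.71, 0.94 and 0.59 at 300 nmol/min. All 4 arrays at 300 nmol/min lay above both vehicle arrays, while those at 30 nmol/min overlapped both other groups. SLC2A8 had levels of -2.10 and -1.83 in vehicle, -2.24, -1.97, -1.81 and -1.57 at 30 nmol/min, with -1.38, -1.72, -1.94 and -1.54 at 300 nmol/min, where the first vehicle value was not well above background. The 3 groups overlapped.

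For the monocarboxylate carrier SLC16A1, levels were -3.80 and -3.02 in vehicle, -2.74, -2.31, -2.66 and -2.77 at 30 nmol/min, with -2.60, -2.73, -2.68 and -2.83 at 300 nmol/min. Neither vehicle array was well above background for this probe, all 8 senktide arrays were, and both vehicle values lay below all senktide values. SLC16A11, a proton-linked monocarboxylate carrier of the same family, had levels of -2.12 and -2.99 in vehicle, -2.58, -2.37, -2.86 and -2.93 at 30 nmol/min, with -2.28, -3.07, -2.92 and -3.33 at 300 nmol/min. Here the second vehicle value was not well above background, and the 3 groups overlapped.

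For the glutamate transporters, SLC1A1 had levels of 0.23 and -0.62 in vehicle, 0.13, -0.27, 0.07 and -0.04 at 30 nmol/min, with 0.06, -0.08, 0.03 and -0.16 at 300 nmol/min. The vehicle arrays were the highest and the lowest of the 10, so the senktide arrays lay within the vehicle pair. SLC1A3 had levels of -2.30 and -1.93 in vehicle, -2.02, -2.91, -1.73 and -2.52 at 30 nmol/min, with -2.42, -1.82, -2.08 and -2.07 at 300 nmol/min. The array at -2.91 was not well above background, and the groups overlapped.

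For the exchanger of large neutral amino acids, the light chain SLC7A5 had levels of 0.26 and 0.57 in vehicle, 0.46, 0.81, 0.33 and 0.67 at 30 nmol/min, with 0.69, 0.23, 0.83 and 0.82 at 300 nmol/min. Its heavy chain SLC3A2 had levels of -2.12 and -1.58 in vehicle, -1.89, -1.65, -1.66 and -1.86 at 30 nmol/min, with -1.91, -1.86, -1.36 and -1.65 at 300 nmol/min, and the first vehicle value was not well above background. The sodium-coupled carrier SLC38A2 had levels of -1.91 and -1.75 in vehicle, -1.86, -2.05, -1.88 and -2.26 at 30 nmol/min, with -2.15, -2.37, -1.99 and -1.65 at 300 nmol/min. In each of these 3 genes all groups overlapped.

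**Figure D3:**
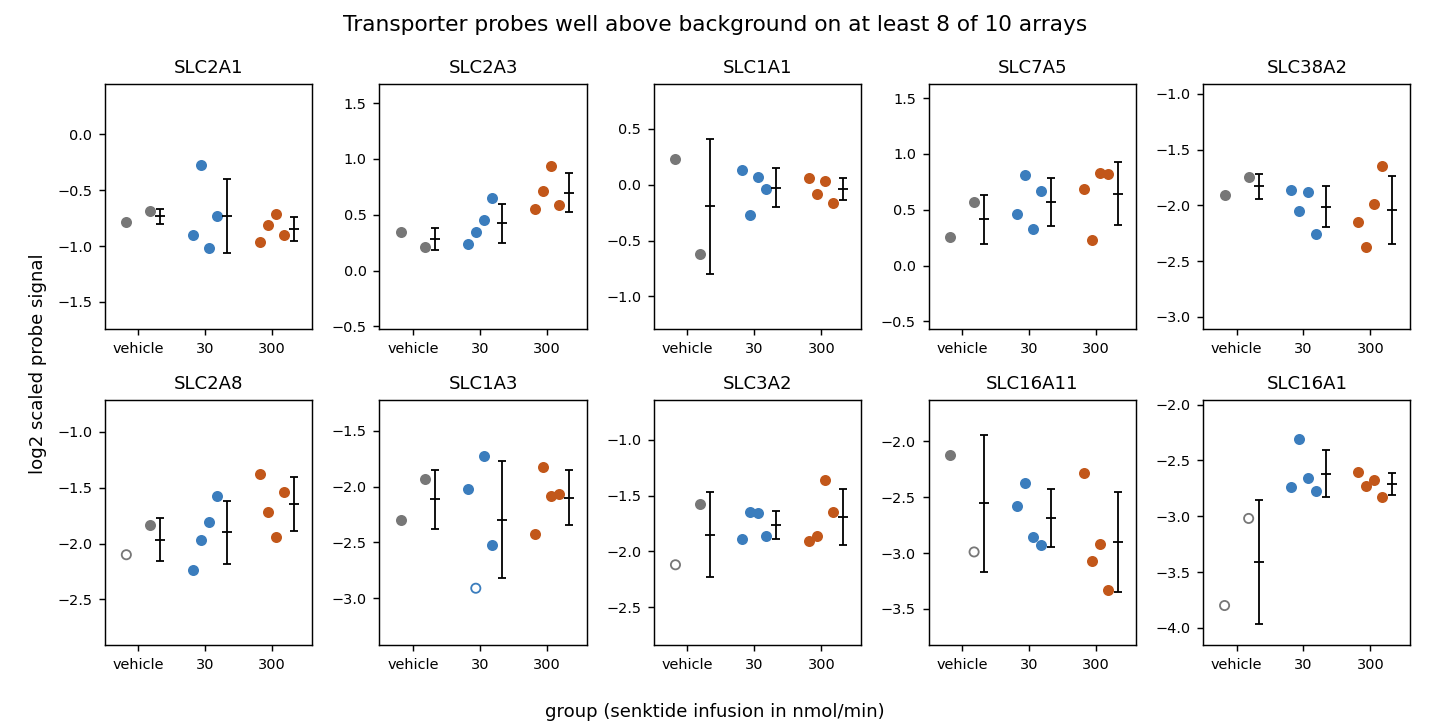
Scaled log2 signal of the 10 transporters seen on at least 8 arrays in each array of the vehicle group and of the groups infused at 30 and 300 nmol/min; open points were not well above background, and bars show the mean and SD of a group (n = 2, 4 and 4). Every panel spans the same number of log2 units, so the spread can be compared between genes while the position on the axis cannot; the SLC16A1 panel has both vehicle points open and below all senktide points.

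No transporter passed the test in the comparison of senktide at 30 nmol/min with vehicle. Measured here means well above background on at least 1 array of a group. Among the 10 transporters measured in both groups, 6 had a higher mean and 4 a lower mean with senktide, between -0.67 (SLC7A7) and 0.17 (SLC1A1) on the log2 scale. SLC7A7 was well above background on 1 of 2 vehicle arrays and 2 of 4 arrays at 30 nmol/min. It differed by -1.41 within slide 1 and by 0.43 within slide 2. The glucose carriers SLC2A1 and SLC2A3 differed by 0.00 and 0.14, and the light and heavy chains SLC7A5 and SLC3A2 by 0.16 and 0.08. By limma with Benjamini-Hochberg adjustment over all 8938 tested probes, 0 of the 18 tested transporters were called, beside 0.0% of all tested probes. At an unadjusted p under 0.05 there were 3 of 18, beside 11.3% of all tested probes, and groups did not overlap in 2 of 18, beside 19.5%. Each of these genes was well above background on 0 vehicle arrays and entered the test through senktide arrays alone. The smallest adjusted p was 0.185 (SLC1A5). The median difference over the 18 was 0.04, beside -0.11 over all tested probes.

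The carriers of the main classes had the following differences at 30 nmol/min. SLC2A1 differed by 0.00 (SE 0.23, adjusted p = 0.994, limma; 95% interval -0.51 to 0.52) and SLC2A3 by 0.14 (SE 0.20, adjusted p = 0.794; interval -0.31 to 0.59). SLC2A8 differed by 0.07 (SE 0.25, adjusted p = 0.924) and SLC1A1 by 0.17 (SE 0.25, adjusted p = 0.801). The leucine exchanger's light chain SLC7A5 differed by 0.16 (SE 0.24, adjusted p = 0.809) and its heavy chain SLC3A2 by 0.08 (SE 0.23, adjusted p = 0.901). SLC38A2 differed by -0.18 (SE 0.24, adjusted p = 0.770). Each of these differences was smaller in size than its SE.

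No transporter passed the test in the comparison of senktide at 300 nmol/min with vehicle, which shares the 2 vehicle arrays with the comparison above. Of the 10 transporters measured in both groups, 6 had a higher and 4 a lower mean with senktide, between -0.40 (SLC7A7) and 0.41 (SLC2A3). For SLC7A7 the difference was -1.23 within slide 1 and 0.68 within slide 2. SLC2A3 was also the 1 gene of these 10 whose groups did not overlap. Over all 18 tested transporters, 0 were called by limma, beside 0.0112% of all tested probes. At an unadjusted p under 0.05 there were 3, beside 13.8%, and groups did not overlap in 5 of 18, beside 25.5% of all tested probes. Apart from SLC2A3, each of these genes was well above background on 0 vehicle arrays and entered the test through senktide arrays alone. The smallest adjusted p was 0.241 (SLC1A5), and the median difference was 0.09, beside -0.11 over all tested probes.

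The high-affinity glucose carrier SLC2A3 averaged 0.70 ± 0.18 (SD, n = 4) at 300 nmol/min and 0.28 ± 0.10 (SD, n = 2) in vehicle. The difference was 0.41 (SE 0.20, adjusted p = 0.379, limma; 95% interval -0.04 to 0.86), which is 1.33-fold. Its second probe on all 10 arrays, at base 4000, read 0.19, 0.21, 0.52 and -0.13 at 300 nmol/min and -0.33 and -0.49 in vehicle. For that probe, too, all 4 senktide values lay above both vehicle values, with a difference of 0.61 (SE 0.23, adjusted p = 0.304). The 2 probes come from 1 transcript and the same arrays, so they are not independent. Within slide 1 the difference at the brightest probe was 0.20 and within slide 2 it was 0.49, with 1 array of each group per slide.

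The other carriers measured in both groups had differences of smaller size at 300 nmol/min. SLC2A8 differed by 0.32 (SE 0.25, adjusted p = 0.536), with 0.72 within slide 1 and 0.11 within slide 2. SLC2A1 differed by -0.11 (SE 0.23, adjusted p = 0.841; 95% interval -0.63 to 0.41) and SLC1A1 by 0.15 (SE 0.25, adjusted p = 0.793). SLC7A5 differed by 0.23 (SE 0.24, adjusted p = 0.663), with 0.43 within slide 1 and -0.34 within slide 2. SLC3A2 differed by 0.16 (SE 0.23, adjusted p = 0.770) and SLC38A2 by -0.21 (SE 0.24, adjusted p = 0.685). With all probes setting the 75th percentile, which moved the median of all tested probes to 1.06, SLC2A1 differed by 1.06 and SLC38A2 by 0.96, so their signs depend on the scaling. The plot of differences shows the zero line inside or close to nearly all of these error bars.

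**Figure D4:**
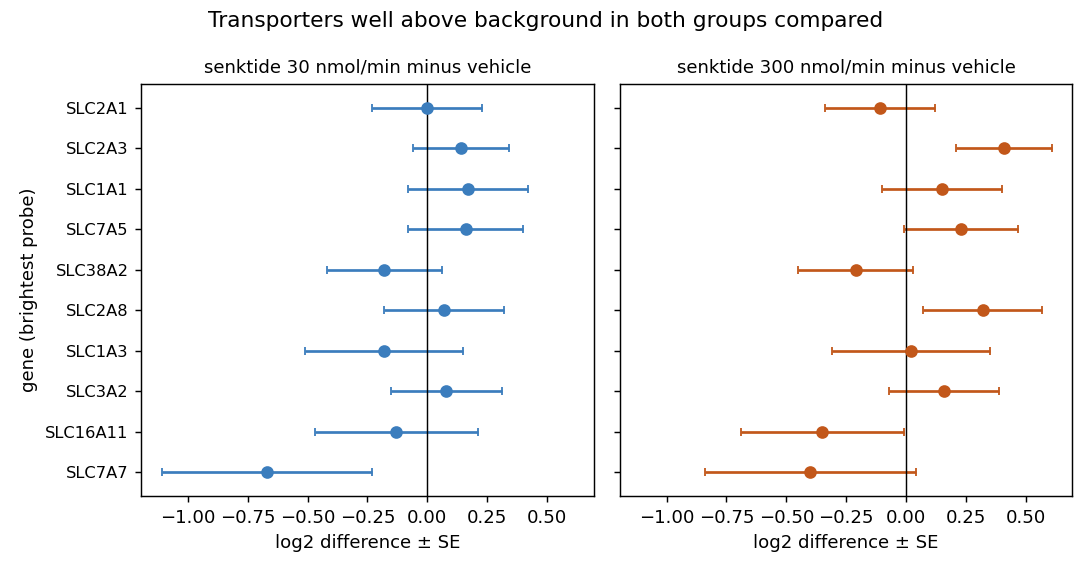
Log2 difference of senktide minus vehicle, with its SE from limma, for the 10 transporters well above background on at least 1 array of both groups, at 30 nmol/min (left) and 300 nmol/min (right). The points run between -0.67 and 0.17 at 30 nmol/min and between -0.40 and 0.41 at 300 nmol/min, and both panels share the 2 vehicle arrays.

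The lactate and pyruvate carrier SLC16A1 had the clearest gap in detection, with 8 of 8 senktide arrays and 0 of 2 vehicle arrays well above background. The probe entered the test through senktide arrays alone, and limma called it at neither dose (adjusted p = 0.316 and 0.289). As vehicle gives only a bound, the mean of these arrays was at least 1.12-fold higher at 30 nmol/min and at least 1.05-fold higher at 300 nmol/min. That bound describes these arrays and takes no account of the spread between them. The bound sets the mean level of the senktide group against, on each vehicle array, the higher of the probe's own signal and the lowest signal called well above background. On vehicle replicate 2 the probe's own signal of 15.2 lay above that lowest signal of 12.5 without being called. The bound therefore holds only under this rule and is not strict. The measured means were -3.41 ± 0.55 in vehicle (SD, n = 2), -2.62 ± 0.21 at 30 nmol/min (n = 4) and -2.71 ± 0.10 at 300 nmol/min (n = 4). Within slide 1, and without vehicle replicate 2, the bound fell under 1 and no fold is given, while within slide 2 it was at least 1.63-fold and 1.22-fold. The vehicle arrays were also among the dimmest, with 7.17% and 9.44% of spots well above background, and the part of that in the result was not tested.

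The glutamine exchanger SLC1A5 had the smallest p of the transporters against vehicle at both doses. Its levels were -4.56 and -4.90 in vehicle, -3.47, -3.73, -3.47 and -2.93 at 30 nmol/min, with -3.71, -4.17, -3.82 and -3.66 at 300 nmol/min. Both vehicle values lay below all senktide values, but the probe was well above background on 0 of 2 vehicle arrays, 3 of 4 arrays at 30 nmol/min and 2 of 4 at 300 nmol/min. The bound came out under 1, so no fold is given, and the adjusted p was 0.185 at 30 nmol/min and 0.241 at 300 nmol/min (limma).

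The glycine carrier SLC6A9 was the third by p at both doses. Its levels were -3.17 and -3.56 in vehicle, -4.25, -3.42, -5.12 and -4.95 at 30 nmol/min, with -4.24, -4.39, -5.29 and -4.49 at 300 nmol/min. The probe was well above background on 0 vehicle arrays and on the 4 senktide arrays of slide 3, although those 4 arrays had the 4 lowest scaled levels of the 10; no fold is given, and the adjusted p was 0.439 and 0.309. Of the 7 probes named SLC6A9 on the array, 3 carry an accession that RefSeq now assigns to LOC515755 on another chromosome. The probe used here is not among them, but its own accession matched no RefSeq gene. SLC43A2, a carrier of branched-chain amino acids, was well above background on 0 vehicle arrays and 2 of 4 arrays at each dose, with no fold and adjusted p = 0.524 and 0.802.

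No transporter passed the test in the comparison of senktide at 300 nmol/min with 30 nmol/min. By limma 0 of 18 transporters were called, beside 0.0% of all tested probes, and 0 of 18 had an unadjusted p under 0.05, beside 3.0%. Groups did not overlap in 0 of 18, beside 2.7% of all tested probes. The 18 differences ran between -0.44 and 0.27, with 9 higher and 9 lower at 300 nmol/min and a median of 0.01, beside -0.01 over all tested probes. The 3 smallest p-values belonged to SLC1A5, at -0.44 (SE 0.21; 95% interval -0.92 to 0.04), SLC2A3, at 0.27 (SE 0.16; interval -0.09 to 0.64), and SLC2A8, at 0.25 (SE 0.20; interval -0.19 to 0.70), each with adjusted p = 0.999. Within slides 1, 2 and 3 the differences of SLC1A5 were -0.24, -0.44 and -0.54, but its probe was well above background on 3 of 4 arrays at 30 nmol/min and 2 of 4 at 300 nmol/min, with both doses so on slide 3 alone, so the values of slides 1 and 2 and the -0.44 over all arrays rest in part on signals not above background. Those of SLC2A3 were 0.31, 0.36 and 0.21, and those of SLC2A8 were 0.86, 0.25 and -0.05, so SLC2A3 was higher at 300 nmol/min on each slide and SLC2A8 was not.

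With both doses pooled against vehicle, 0 of 18 transporters were called by limma, beside 0.0336% of all tested probes. At an unadjusted p under 0.05 there were 3, beside 14.9% of all tested probes, groups did not overlap in 2, beside 11.4%, and the median difference was 0.03, beside -0.11. The 3 were again SLC1A5, SLC16A1 and SLC6A9, with adjusted p = 0.147, 0.218 and 0.284, each on 0 vehicle arrays. The only fold that can be given is a bound of at least 1.09-fold, higher with senktide, for SLC16A1, with the limits above.

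Genes that work with these carriers did not pass the test either. A list of 33 such genes held chaperones, sodium glucose carriers, hexokinases, TXNIP of glucose transporter turnover, lactate dehydrogenases, and enzymes of glutamine and glutamate. It also held genes of the amino acid starvation and lysosomal sensing pathways. Of the 33, 25 were named on the array and 13 were tested, and 0 were called in any of the 4 comparisons. Of all tested probes, 0.0%, 0.0112%, 0.0% and 0.0336% were called, in the order used below. At an unadjusted p under 0.05 (limma) there were 3, 0, 2 and 2 of the 13, beside 11.3%, 13.8%, 3.0% and 14.9% of all tested probes. The numbers higher and lower were 2 and 11 at 30 nmol/min against vehicle, 5 and 8 at 300 nmol/min against vehicle, 9 and 4 at 300 against 30 nmol/min, and 3 and 10 with both doses pooled. Their median differences were -0.07, -0.10, 0.11 and -0.07, beside -0.11, -0.11, -0.01 and -0.11 over all tested probes. GLUD1, TRIB3 and RRAGC were well above background on 0 vehicle arrays, so their direction against vehicle rests in part on signals not above background. BSG, the chaperone that takes MCT1 and MCT4 to the membrane, was well above background on 0 arrays with 4 probes. The sodium glucose carriers SLC5A1 and SLC5A2 were likewise well above background on 0 arrays.

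Of that list, DDIT3 (CHOP), a transcription factor of the integrated stress response, had the smallest p at 30 nmol/min against vehicle. Its levels were -2.78 and -2.28 in vehicle, -3.96, -4.92, -3.31 and -3.99 at 30 nmol/min, with -3.48, -2.74, -2.36 and -2.74 at 300 nmol/min. The 4 arrays at 30 nmol/min lay below both vehicle arrays, with a difference of -1.52 (SE 0.43, adjusted p = 0.301, limma), while 300 minus 30 nmol/min gave 1.22 (SE 0.36, adjusted p = 0.999). With both doses pooled it differed from vehicle by -0.91 (SE 0.40, adjusted p = 0.334), or by 0.21 with the 75th percentile of all probes as the scale. It was well above background on 1 of 2 arrays in vehicle, 2 of 4 at 30 nmol/min and 3 of 4 at 300 nmol/min.

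GLUD1, RRAGA and TRIB3 were the other genes of that list with the smallest p. GLUD1, glutamate dehydrogenase, was well above background on 0 of 2 arrays in vehicle, 1 of 4 at 30 nmol/min and 2 of 4 at 300 nmol/min, so no fold is given, and its adjusted p against vehicle was 0.398 at 30 nmol/min, 0.362 at 300 nmol/min and 0.285 with both doses pooled. RRAGA, a GTPase that recruits mTORC1 to the lysosome, differed by 0.69 at 300 nmol/min from vehicle (SE 0.37, adjusted p = 0.419), with levels of -2.52, -2.23, -2.07 and -2.38 at 300 nmol/min and -3.75 and -2.23 in vehicle; without vehicle replicate 1 the difference was -0.07. TRIB3, a pseudokinase induced by amino acid shortage, was well above background on 2 of 4 arrays at 300 nmol/min and 0 of 4 at 30 nmol/min, with no fold and adjusted p = 0.999.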

How the data were processed

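The deposited scanner files hold 1 spot per row with intensity values. Their headers name Agilent Feature Extraction 11.5.1.1 and the submitters' processing notes 10.5.1.1. Per the file headers, background was subtracted from the processed intensity used here, and arrays were not scaled to each other. Flags for spots well above background and for outliers, other values coded 0 or 1 in the deposited files, were used as given; outlier spots were left out and 0 spots were saturated. The deposited value table holds log2 values, and 99.88% or more of an array's values were rebuilt to within 0.01 by scaling the log2 processed signal to the array's 75th percentile (all probes) and centring each probe on its median, so scale, centring and direction are known; its column medians ran from -0.31 to 0.22. Title, source and tissue labels name embryos, although the extraction protocol mentions endometrial samples.

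Spots of a probe were averaged, and log2 signals were scaled to the 75th percentile of the 2491 probes that passed the well-above-background call on each of the 10 arrays, since under 50% of probes were detected. The 8938 probes well above background on at least 2 arrays were fitted with limma 3.58.1 (R 4.3.3) over all 10 arrays, with a coefficient for each group and Benjamini-Hochberg adjustment at 0.05; the code was tested on simulated data. Python 3.11.15 with pandas 2.3.3 and matplotlib 3.10.9 read and drew the values. No fold is given where a group's probe was well above background on 0 arrays, except a bound above 1. Log2 differences of such probes are given only where another setting turned their sign. Gene names are those of the files; 100 of 153 probes matched RefSeq (ARS-UCD2.0, names only) by accession. The number of arrays limits the precision.

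The members, lists and tests were chosen with earlier results of these data known. Values per array are given for members on at least 8 arrays and for the 3 smallest p-values of each comparison; differences for those 3 and, against vehicle at each dose, for a core set where both groups were measured; of the partner genes, the 2 smallest p-values and BSG. Groups came from titles. Deviations from group means correlated at 0.487 to 0.574 in the 4 same-numbered pairs of the senktide groups, which also share a slide. Pairs of these groups that joined slide 3 with slide 1 or 2 gave -0.531 to -0.471. Within slide 3 the same-numbered pairs gave 0.5645 and 0.5742, and pairs of other numbers 0.492 and 0.545. On slides 1 and 2 the same-numbered pairs gave 0.4874 and 0.4941, and pairs of other numbers 0.414 and 0.417. There, number and slide coincide. Same-numbered pairs were the higher in both sets, and whether the numbers mark a pairing was not tested. Vehicle and senktide arrays of the same number gave -0.20 to 0.18, which cannot inform on this because the deviations of 2 vehicle arrays mirror each other. Alternatives were other scalings, quantile normalization, normexp with an offset of 50, other filters, a floor, slide and replicate blocks, subsets of arrays, the value table and single arrays left out.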

Additional observations from a re-analysis of the deposited data

How the results depend on the processing

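No transporter was called in any of the 4 comparisons under any alternative run. The smallest adjusted p over the alternatives lay between 0.0976 and 0.890 at 30 nmol/min against vehicle, 0.103 and 0.613 at 300 nmol/min against vehicle, 0.862 and 1 between the doses, and 0.0657 and 0.630 with both doses pooled. With the replicate number as a block the smallest adjusted p was 0.347, 0.310, 0.981 and 0.276 in that order, and that fit changed no call of a transporter. Calls over all probes did move: quantile normalization gave 107, 142, 0 and 223, normexp with quantile normalization 36, 107, 1 and 178, omission of vehicle replicate 1 34, 32, 0 and 37, and omission of vehicle replicate 2 36, 50, 0 and 61, against 0, 1, 0 and 3 as reported.

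Scaling to all probes instead of the bright ones shifted the median of all tested probes from -0.11 to 0.95 at 30 nmol/min and 1.06 at 300 nmol/min (75th percentile), or to 1.21 and 1.31 (median); the transporters' medians then were 1.09, 1.26, 1.36 and 1.51. Relative to those shifts SLC2A1 at 300 nmol/min (1.06 with the 75th percentile and the value table, 1.31 with the median) and SLC38A2 (0.88, 0.88 and 1.14 at 30 nmol/min; 0.96, 0.96 and 1.22 at 300 nmol/min) lay near or below the median, but their signs turned. So did SLC6A9 with the median (0.25, 0.19 and, pooled, 0.22), GLUD1 with the median (0.16 at 300 nmol/min, 0.01 pooled) and DDIT3 pooled (0.21, 0.20 and 0.46). The SLC16A1 bound was at least 2.34-fold and 2.38-fold at the 2 doses with the 75th percentile of all probes and 2.81-fold and 2.83-fold with their median.

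Other settings turned the sign of small differences and of the larger ones of SLC1A5. SLC1A1 gave -0.02 and -0.18 with normexp, and SLC38A2 0.20 with its next probe at 300 nmol/min. SLC1A5, well above background on 0 vehicle arrays, differed from vehicle by 1.33 at 30 nmol/min, 0.89 at 300 nmol/min and 1.11 pooled. With a floor at the lowest signal well above background it gave -0.28, -0.77 and -0.52. With only slides 1 and 2, SLC2A8 gave -0.14 at 30 nmol/min and SLC3A2 -0.03 at 300 nmol/min, and SLC3A2 gave -0.01 at 30 nmol/min with the replicate block or the slide block. Leaving out single arrays gave ranges of -0.26 to 0.59 and -0.27 to 0.58 for SLC1A1 at 30 and 300 nmol/min, -0.07 to 0.20 for SLC2A8 at 30 nmol/min, -0.18 to 0.35 and -0.11 to 0.42 for SLC3A2, and -0.07 to 1.45 for RRAGA at 300 nmol/min; the cause was not tested.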
